A study of Mus musculus with 84 samples.

Results

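Sorted microglia of clodronate-treated mice 14 days after a severe traumatic brain injury (TBI) were compared with the same kind of sample 7 days after the injury. The members were the raw count libraries whose names carry the day, clodronate liposomes, TBI and the same library year, which gave 5 libraries at day 14 and 5 at day 7, 10 of the 84 samples in the series. All 10 came from mice that received the injury and clodronate liposomes, so both groups share the injury and the agent and differ in the day of collection. The series is bulk RNA sequencing of mouse microglia isolated by flow sorting, with groups given clodronate liposomes, vehicle liposomes, the injury alone or no injury, collected at several days after injury. Vehicle libraries of day 14 (5) and day 7 (4), clodronate libraries of day 1 (3) and day 30 (4) and uninjured libraries of day 7 (4), all of that library year, are used below where named. Strain, sex, age, genotype and the gates of the sort were not given in the sources used here, nor was it stated whether each replicate was a different animal. Tests therefore set differences against the spread of these libraries, which may be technical.

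Microglia are the resident macrophages of the brain and depend on signalling through the receptor Csf1r. Clodronate liposomes are taken up by phagocytic cells and kill them, and given into the blood they deplete circulating monocytes and macrophages, the cells that enter injured brain tissue and can resemble microglia there. After injury, microglia lower homeostatic genes such as P2ry12 and raise genes of lipid handling, phagocytosis, antigen presentation and cytokine signalling.

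Libraries held 9534378 to 16360851 gene counts at day 14 and 11129794 to 15375096 at day 7, with 65.8% to 72.2% of reads marked as duplicates at day 14 and 69.3% to 73.4% at day 7. None of 7 run-summary values differed between the days after Benjamini-Hochberg adjustment (two-sided exact permutation tests, n = 5 each, raw p 0.111 to 0.659, where the smallest possible p is 0.00794). Markers of microglia were present: in all 10 libraries Csf1r lay between 9806 and 14230 CPM (counts scaled to a common library size), and Cx3cr1 between 2483 and 3580 CPM. Another marker, P2ry12, varied more, from 881 to 4184 CPM. Markers of other cell types were also counted, as given below, and the purity of the sort was not tested. One library stood apart. The library labelled clodronate day 14 replicate 1 had 1397 CPM of Apoe, against 57980 to 64350 CPM in replicates 2 to 5, 5.29 CPM of Spp1 against 3131 to 5153 CPM, and 4184 CPM of P2ry12 against 881 to 1106 CPM. Its Spearman correlation over 14186 genes was 0.925 to 0.947 with the other day 14 clodronate libraries, which correlated at 0.976 to 0.987 among themselves. Clodronate day 14 replicate 1 correlated at 0.967 to 0.980 with the uninjured libraries of day 7 and at 0.955 to 0.978 with vehicle day 14 replicates 2 to 5. These values were higher than those with its own group, and whether its label is right was not tested. Results are therefore given with all 10 libraries and also without it, the second being written as "without replicate 1". That library was left out after its values were seen, Apoe, Spp1 and P2ry12 among them. For these genes and others that set it apart, p-values without replicate 1 are no independent support. In each list of single values, libraries stand in the order of replicates 1 to 5, so the library that stands apart is the first value of day 14.

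Between day 14 and day 7, edgeR's quasi-likelihood test tested 12955 genes and called 333 that rose, 2.57% of those tested, and 1041 that fell, 8.04%, at an adjusted p under 0.05. Without replicate 1, 1147 of 13383 genes rose, 8.57%, and 1587 fell, 11.9%. Of the genes called with all libraries, 332 also rose and 1038 also fell without replicate 1, and none of the genes called in both changed direction. The share of called genes that rose was 24.2% with all libraries and 42.0% without replicate 1. The median log2 fold change over all genes tested was 0.04 with all libraries and 0.02 without replicate 1. Falls were larger than rises: the median log2 fold change of the genes that fell was -2.84, with 722 of them past 4-fold, and that of the genes that rose was 1.06, with 90 past 4-fold. Genes that fell were also scarcer transcripts, with a median mean level of 1.28 CPM at day 14 against 9.32 CPM at day 7, while genes that rose had 55.2 CPM at day 14 against 23.2 CPM at day 7. The day 14 and day 7 libraries did not overlap for 933 of the genes that fell and for 109 of the genes that rose. Over all 12955 genes tested this held for 1193. Without replicate 1 it held for 1355 of the 1587 that fell, 935 of the 1147 that rose and 2623 of all 13383.

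**Figure D1:**
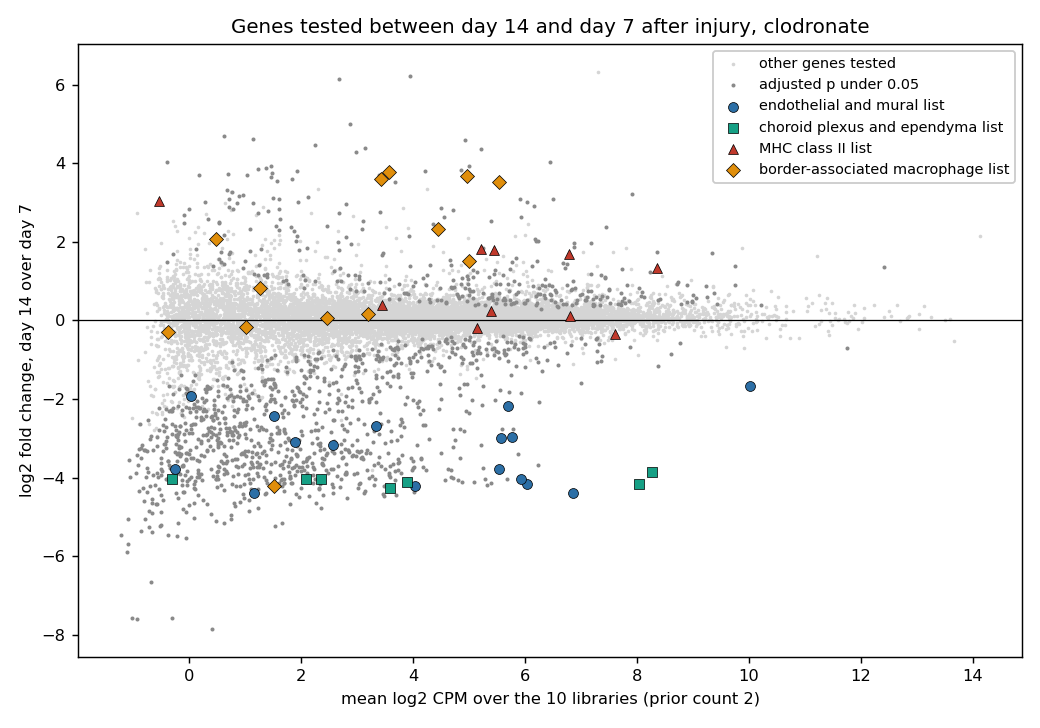
Log2 fold change of day 14 over day 7 (y axis) against the mean log2 CPM over the 10 clodronate libraries (x axis), 1 point per gene tested, with genes called in dark grey and 4 gene lists in colour. Endothelial and mural markers (blue) and choroid plexus and ependyma markers (green) lie at or below the -1.66 of Bsg, and several MHC class II genes (red) and border-associated macrophage markers (orange) lie above 1.

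Genes of antigen presentation by MHC class II were among the transcripts that rose in both sets of libraries. Of 10 list members tested, 5 rose and 0 fell, beside 2.57% and 8.04% of all genes, and the median log2 fold change of the list was 0.86, beside 0.04 for all genes. MHC class II molecules carry peptides to CD4 T cells: H2-Aa and H2-Ab1 encode the chains of the I-A molecule, H2-Eb1 a chain of the I-E molecule, Cd74 the invariant chain that guards the peptide groove, and Ciita the transactivator that switches on these genes. H2-Aa and H2-Eb1 are neighbours in the MHC on chromosome 17, and the 250 bases before the annotated start of each (RefSeq, GRCm38.p6) are shown because CIITA acts at such promoters through factors bound to short elements, parts of the X box and the Y box. Both sequences are written 5′ to 3′ on the gene's strand, with GCAACT, a part of the X box, and CTGATTGG, the Y box, in capitals.
H2-Aa (chr17:34287824-34288073, minus strand): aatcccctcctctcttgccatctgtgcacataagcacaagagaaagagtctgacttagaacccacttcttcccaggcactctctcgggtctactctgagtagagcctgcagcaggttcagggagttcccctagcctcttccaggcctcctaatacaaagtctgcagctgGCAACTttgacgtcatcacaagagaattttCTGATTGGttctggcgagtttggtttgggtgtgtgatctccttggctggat
H2-Eb1 (chr17:34305617-34305866, plus strand): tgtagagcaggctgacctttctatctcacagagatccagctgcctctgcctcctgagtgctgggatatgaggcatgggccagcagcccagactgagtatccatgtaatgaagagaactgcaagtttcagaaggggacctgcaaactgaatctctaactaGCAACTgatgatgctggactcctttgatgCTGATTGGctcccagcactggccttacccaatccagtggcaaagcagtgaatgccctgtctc
In the H2-Aa promoter GCAACT began 81 bases before the start and CTGATTGG 51 bases before it, with 24 bases between them. In the H2-Eb1 promoter the motifs began 91 and 62 bases before the start, with 23 bases between them. Both motifs were searched on both strands in all 32851 windows of the same length and do not overlap each other: GCAACT was in 9.01% of windows and CTGATTGG in 3.83%. Both on 1 strand with 10 to 30 bases between them were found in 5 windows (0.0152%), among them these 2. Of the 10 list members 7 had a window, all but H2-Ab1, Cd74 and Ciita. Of these 7 only H2-Aa and H2-Eb1 held both motifs, H2-Oa held CTGATTGG alone, and H2-DMa, H2-DMb1, H2-DMb2 and H2-Ob held neither. Only these exact letters were searched, so a promoter without them is not shown to lack an X box or a Y box. The shares of windows hold for these letters alone. A match of letters describes the sequence and shows no binding.

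Cd74 had 637, 602, 401, 631 and 405 CPM at day 14, against 226, 297, 209.7, 157 and 172 CPM at day 7. Every day 14 library, the first included, lay above every day 7 library, and the log2 fold change was 1.33 ± 0.20 (SE; edgeR adjusted p = 8.30e-04). H2-Ab1 had 278, 272, 94.6, 278 and 131 CPM at day 14 and 67.4, 104, 56, 52 and 46.3 CPM at day 7. Replicate 3 of day 14 lay below replicate 2 of day 7 and all other day 14 libraries lay above it. The log2 fold change of H2-Ab1 was 1.70 ± 0.33 (edgeR adjusted p = 0.00428). H2-Aa, one of the genes whose promoter is shown above, had 128, 111, 30.2, 129 and 49.5 CPM at day 14 and 26.3, 47.3, 20.7, 18.1 and 17.5 CPM at day 7, a log2 fold change of 1.78 ± 0.41 (edgeR adjusted p = 0.0141). H2-Eb1, the other, had 123, 87.2, 25.4, 114 and 39.5 CPM at day 14 and 22.5, 37.7, 16.2, 16.1 and 17.2 CPM at day 7, a log2 fold change of 1.82 ± 0.42 (edgeR adjusted p = 0.0132). For both genes the same libraries were low at day 14, replicates 3 and 5, and replicate 2 was the highest at day 7. Ciita was scarce, at 1.35, 2.25, 1, 2.95 and 0.884 CPM at day 14 and 0.673, 0.143, 0.0652, 0 and 0.0846 CPM at day 7, and rose without overlap (log2 fold change 3.04 ± 0.72, edgeR adjusted p = 0.0158). The Ciita call was lost without day 7 replicate 5, where the edgeR adjusted p was 0.051. H2-DMa, which helps to load peptides, had 250.4, 189, 149, 152 and 136 CPM at day 14 and 208, 252.2, 235, 215 and 201 CPM at day 7 and was not called (edgeR adjusted p = 0.258), but it fell without replicate 1 (log2 fold change -0.50 ± 0.12, adjusted p = 0.00884). The summed level of the 10 genes was 913 to 1644 CPM at day 14 and 636 to 932 CPM at day 7.

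**Figure D2:**
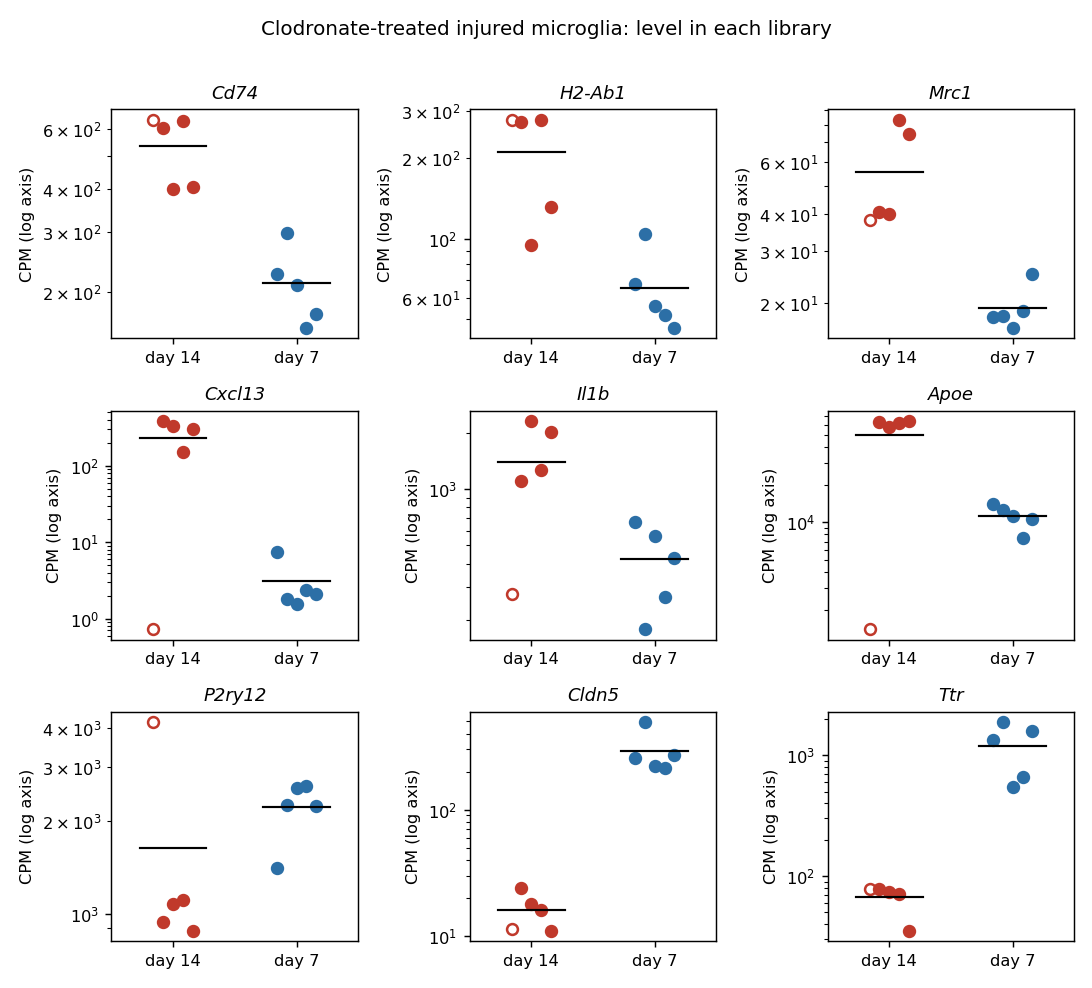
CPM of 9 genes in each library (y axes logarithmic), with day 14 left of day 7, a filled point per library, an open point for day 14 replicate 1 and a line at the mean. Cd74, Mrc1, Cldn5 and Ttr are separated between the days in all 10 libraries, while in Cxcl13, Il1b, Apoe and P2ry12 the open point lies on the far side of the day 7 libraries or among them.

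The genes with the largest rises among transcripts whose log2 CPM averaged at least 3 and with no overlap between the days were led by Mrc1, the mannose receptor. Mrc1 had 38.4, 40.8, 40.1, 83.4 and 74.8 CPM at day 14 and 17.9, 18.1, 16.5, 18.8 and 25.2 CPM at day 7, with every day 14 library above every day 7 library (log2 fold change 1.52 ± 0.24, edgeR adjusted p = 0.00113). Tnfsf13b, which encodes the B cell survival factor BAFF, had 47.7, 139, 111, 75.9 and 96.3 CPM at day 14 and 34.5, 34.3, 34.1, 34.1 and 30.8 CPM at day 7. The day 7 libraries lay within 4 CPM of each other and all 5 day 14 libraries lay above them (log2 fold change 1.49 ± 0.23, edgeR adjusted p = 8.56e-04). Fam49a had 25.9, 45, 42.1, 55.3 and 43.8 CPM at day 14 and 15.4, 11.8, 18, 20 and 14.6 CPM at day 7, again with no overlap (log2 fold change 1.41 ± 0.20, edgeR adjusted p = 4.86e-04). Pik3r5, a regulatory subunit of the phosphoinositide 3-kinase used by chemokine receptors, had 169.8, 248, 294, 256 and 306 CPM at day 14 and 110.5, 74.8, 140.7, 151 and 127 CPM at day 7. Pik3r5 rose by 1.08 ± 0.20 on the log2 scale (edgeR adjusted p = 0.0037). Beside Cd74, the rest of this set had log2 fold changes of 1.27 ± 0.25 for Lst1, 1.07 ± 0.19 for Nabp1, which encodes a single-stranded DNA binding protein, 1.07 ± 0.16 for the leukocyte receptor Lilra5, 1.04 ± 0.23 for the oxysterol-binding protein gene Osbpl3 and 1.00 ± 0.19 for the C-type lectin Clec4a2. Their edgeR adjusted p-values lay between 8.30e-04 for Lilra5 and 0.00988 for Osbpl3. In each of these 10 genes every day 14 library lay above the highest day 7 library, and replicate 1 was the lowest of day 14 in all but Cd74 and Nabp1.

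Markers of border-associated macrophages, the macrophages of the meninges and perivascular spaces, rose in 6 of 13 members tested and fell in 1, beside 2.57% and 8.04% of all genes, with a median log2 fold change of 1.52 beside 0.04 for all genes. The summed level of the list was 97.3 CPM in replicate 1 and 635 to 814 CPM in replicates 2 to 5 at day 14, against 69.7 to 144 CPM at day 7. Ms4a7, a membrane protein of macrophages outside the microglial lineage, had 10.1, 325, 204, 235 and 272 CPM at day 14 and 35, 24.9, 12.3, 9.23 and 9.3 CPM at day 7. Replicates 2 to 5 of day 14 lay far above every day 7 library and replicate 1 lay among them (log2 fold change 3.52 ± 0.71, edgeR adjusted p = 0.00587; without replicate 1 3.83 ± 0.38, adjusted p = 1.94e-05). Cd38, an ectoenzyme that consumes NAD, had 6.84, 134, 255, 123 and 212 CPM at day 14 and 20, 8.83, 6.07, 12.8 and 9.73 CPM at day 7. Cd38 rose by 3.67 ± 0.69 on the log2 scale (edgeR adjusted p = 0.00366). Pf4, a platelet and macrophage chemokine, had 13.8, 78.3, 66.3, 36.3 and 73 CPM at day 14 and 16.4, 11.5, 6.72, 9.23 and 9.9 CPM at day 7. Pf4 rose by 2.32 ± 0.41 on the log2 scale (edgeR adjusted p = 0.00239). The lectin receptor Clec4n and the chemokine Ccl8 rose by 3.61 ± 0.73 and 3.78 ± 0.81 on the log2 scale (edgeR adjusted p = 0.00609 and 0.00875), with replicate 1 of day 14 at or near the lowest of the 10 libraries in both. The member that fell was F5, coagulation factor V, with 1.24, 0.661, 0.308, 0.59 and 0.408 CPM at day 14 against 8.69, 13.3, 7.17, 10 and 19.8 CPM at day 7. F5 fell by 4.22 ± 0.41 on the log2 scale (edgeR adjusted p = 2.28e-05). The defining markers Cd163 and Lyve1 were low and not called: Cd163 had 4.87, 1.32, 3.31, 2.16 and 4.42 CPM at day 14 and 2.49, 1.36, 2.15, 1.08 and 1.86 CPM at day 7 (edgeR adjusted p = 0.245), and Lyve1 had 3.42, 0.397, 0, 0.722 and 0.068 CPM at day 14 and 0.876, 2.15, 0.391, 0.937 and 0.93 CPM at day 7 (edgeR adjusted p = 0.913). In bulk libraries a change in the number of cells of a type and a change in RNA per cell cannot be told apart.

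Of 15 monocyte and infiltrating macrophage markers tested, 4 rose and 3 fell, beside 2.57% and 8.04% of all genes. The members that rose were F13a1, the A subunit of coagulation factor XIII, Cd44, an adhesion receptor for hyaluronan, Hp, haptoglobin, and Treml4. F13a1 had 19.5, 176, 182, 111 and 140.2 CPM at day 14 and 52.7, 16.4, 7.17, 15.6 and 15.9 CPM at day 7. F13a1 rose by 2.54 ± 0.59 on the log2 scale (edgeR adjusted p = 0.0151). Cd44 had 2.59, 49, 44.3, 40.2 and 58.7 CPM at day 14 and 13.8, 7.82, 7.24, 7.86 and 6.85 CPM at day 7. Cd44 rose by 2.16 ± 0.55 on the log2 scale (edgeR adjusted p = 0.0242). In both genes replicates 2 to 5 of day 14 lay above all day 7 libraries, replicate 1 did not, and replicate 1 was the highest of day 7. Hp rose by 4.39 ± 1.12 and Treml4 by 2.18 ± 0.53 on the log2 scale (edgeR adjusted p = 0.0243 and 0.0194). The calls of Cd44, Hp and Treml4 were lost in 6, 5 and 2 of the 10 fits that left out 1 library, with adjusted p up to 0.0706, 0.0693 and 0.0552. The 3 that fell were Ly6c1, Ace and Itga1, which endothelial cells also express: Ly6c1 had 6.64, 12, 13.3, 9.05 and 9.04 CPM at day 14 and 144, 281, 95.9, 133 and 165 CPM at day 7 (log2 fold change -4.03 ± 0.30, edgeR adjusted p = 3.06e-06), Ace fell by 3.49 and Itga1 by 3.59 on the log2 scale. The defining markers of circulating monocytes were not called with all libraries. Ccr2 was called in 1 of the 10 fits that left out 1 library (lowest edgeR adjusted p = 0.0452) and Ly6c2 in none. Day 7 replicate 1 held the highest Ccr2 of the 10 libraries. Ccr2 had 10.6, 21.1, 14.6, 16.3 and 14.8 CPM at day 14 and 23.4, 10.8, 1.5, 2.23 and 2.28 CPM at day 7 (edgeR adjusted p = 0.471), and Ly6c2 had 0, 2.84, 1.54, 0.59 and 0.952 CPM at day 14 and 8.29, 4.02, 0.326, 1.15 and 0.592 CPM at day 7 (edgeR adjusted p = 0.505). The summed level of the monocyte list at day 14 was 51.6 CPM in replicate 1 and 278 to 496 CPM in replicates 2 to 5. At day 7 it was 154 to 446 CPM. Without Ly6c1, its most abundant member, the list summed to 45.0 to 482.5 CPM at day 14 and 58.4 to 222.8 CPM at day 7. In that sum replicate 1 of day 14 was the lowest, and replicates 2 to 5 lay above every day 7 library.

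Of 14 neutrophil markers 6 passed the filter on low counts, of which 3 rose and 0 fell, beside 2.57% and 8.04% of all genes. Genes seen mainly at day 14 passed that filter by being high there. S100a8, a subunit of calprotectin, had 3.21, 20.6, 9, 7.35 and 12.2 CPM at day 14 and 2.69, 0.43, 0, 1.23 and 1.69 CPM at day 7, and its partner S100a9 had 3.63, 17.6, 8.07, 7.21 and 7.28 CPM at day 14 and 3.1, 0.789, 0.587, 2.16 and 1.78 CPM at day 7. Both were separated between the days in all 10 libraries (log2 fold changes 3.12 ± 0.73 and 2.38 ± 0.50, edgeR adjusted p = 0.0149 and 0.00778). Mmp9, gelatinase B, had 1.76, 22.3, 14.5, 8.53 and 27.5 CPM at day 14 and 4.11, 0.43, 0, 0.937 and 0.846 CPM at day 7. Mmp9 rose by 3.55 ± 0.87 on the log2 scale (edgeR adjusted p = 0.0202), and its call was lost in 4 of the 10 fits that left out 1 library (adjusted p up to 0.0611). Without Csf3r, its most abundant member, the neutrophil list summed to 32.3 to 105 CPM at day 14 and 16.4 to 221 CPM at day 7, and Elane was at 0 in all 10 libraries. Of 16 T and NK cell markers 4 passed that filter. Of these 1 rose, the lymph-node homing receptor Ccr7, and 0 fell, beside the same shares of all genes. Ccr7 had 0.311, 84.2, 68.9, 151 and 61.9 CPM at day 14 and 5.32, 2.51, 0.587, 2.31 and 0.423 CPM at day 7. Ccr7 rose by 5.02 ± 1.00 on the log2 scale (edgeR adjusted p = 0.00566). The other members of that list together stayed between 8.77 and 16.2 CPM at day 14 and 9.98 and 19.6 CPM at day 7. The part that other blood cells play in these rises was not tested.

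Cytokine genes and genes of NF-kB signalling rose in 5 of 23 members tested and fell in 0, beside 2.57% and 8.04% of all genes, with a median log2 fold change of 0.37 beside 0.04. Il1b, interleukin 1 beta, had 274 CPM in replicate 1 and 1101 to 2309 CPM in replicates 2 to 5 of day 14 and 671, 178, 560.0, 267 and 429 CPM at day 7. The 4 later replicates of day 14 exceeded all day 7 libraries and replicate 1 lay among them (log2 fold change 1.73 ± 0.50, edgeR adjusted p = 0.0453; without replicate 1 1.99 ± 0.35, adjusted p = 0.00142). Il1rn, the interleukin 1 receptor antagonist, had 2.07, 88.4, 164, 55.2 and 122 CPM at day 14 and 19.7, 5.6, 8.61, 9.66 and 15.7 CPM at day 7. Il1rn rose by 2.86 ± 0.74 on the log2 scale (edgeR adjusted p = 0.0258). The anti-inflammatory cytokine Il10 had 0.518, 11.9, 4.54, 5.51 and 6.66 CPM at day 14 and 1.21, 0, 0.587, 0.288 and 1.35 CPM at day 7. Il10 rose by 3.09 ± 0.79 on the log2 scale (edgeR adjusted p = 0.0255). Tnfaip2 and Nfkb2, both induced by tumour necrosis factor, rose by 1.2 ± 0.31 and 0.83 ± 0.24 on the log2 scale (edgeR adjusted p = 0.0283 and 0.0461). Tnf itself had 306, 619, 962, 389.8 and 469 CPM at day 14 and 734, 306, 534, 459 and 435 CPM at day 7, overlapped between the days and was not called (edgeR adjusted p = 0.849). The calls of Il1b, Il1rn, Il10, Tnfaip2 and Nfkb2 were lost in 8, 6, 4, 8 and 9 of the 10 fits that left out 1 library, none of them the fit without replicate 1 of day 14, with adjusted p up to 0.109, 0.0725, 0.0657, 0.0721 and 0.117. Without replicate 1, 9 of 24 members rose and 1 fell, beside 8.57% and 11.9% of all genes, and the median was 0.73 beside 0.02.

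Of 16 chemokine genes, 3 rose and 0 fell with all libraries, beside 2.57% and 8.04% of all genes. Without replicate 1, 10 rose and 1 fell, beside 8.57% and 11.9%. Cxcl13 (chromosome 5, 95956951 to 95961068, GRCm38), which attracts B cells, had the largest rise of the named genes. It had 0.726, 385, 331, 150.1 and 301 CPM at day 14 and 7.54, 1.79, 1.56, 2.38 and 2.12 CPM at day 7, so that 4 day 14 libraries lay between 150 and 385 CPM and replicate 1 lay below every day 7 library. The log2 fold change of Cxcl13 was 6.23 ± 1.08 (edgeR adjusted p = 0.00214) and 6.55 ± 0.46 without replicate 1 (adjusted p = 2.07e-06). Cxcl16, a membrane-bound chemokine and scavenger receptor, had 97.4, 905, 943, 673 and 782 CPM at day 14 and 239, 192, 221, 182 and 185 CPM at day 7. Cxcl16 rose by 1.74 ± 0.43 on the log2 scale (edgeR adjusted p = 0.0217). Ccl5, which attracts T cells and monocytes, had 1.45, 206, 498, 188 and 302 CPM at day 14 and 50.9, 8.47, 5.67, 5.48 and 7.44 CPM at day 7. Ccl5 rose by 3.94 ± 1.05 on the log2 scale (edgeR adjusted p = 0.031). The calls of Cxcl16 and Ccl5 were lost in 4 and 7 of the 10 fits without 1 library (adjusted p up to 0.0623 and 0.0878). Ccl2, the main attractant of Ccr2-bearing monocytes, had 102, 679, 644, 333 and 464 CPM at day 14 and 457, 229.6, 211, 261 and 214 CPM at day 7 and was called only without replicate 1 (adjusted p = 0.389 with all libraries and 0.0193 without it, edgeR). Ccl3 went the same way, with log2 fold changes of 0.36 ± 0.24 (edgeR adjusted p = 0.451) and 0.55 ± 0.13 without replicate 1 (adjusted p = 0.0114).

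Of 14 complement genes 2 rose, C3ar1 and Cfp, and 0 fell, beside 2.57% and 8.04% of all genes. C3ar1, the receptor for C3a, had 563, 1036, 918, 895 and 881 CPM at day 14 and 538, 479, 595, 494 and 529 CPM at day 7, with replicate 1 of day 14 inside the range of day 7 and the rest above it (log2 fold change 0.71 ± 0.15, edgeR adjusted p = 0.00977). Cfp, properdin, which stabilises the alternative pathway convertase, had 4.15, 222, 322, 113 and 286 CPM at day 14 and 41, 12, 3.13, 4.97 and 4.48 CPM at day 7. Cfp rose by 3.85 ± 0.97 on the log2 scale (edgeR adjusted p = 0.0227), and lost its call in 5 of the 10 fits without 1 library (adjusted p up to 0.0658). None of 16 MHC class I genes was called by edgeR with all libraries, and 7 rose without replicate 1, beside 8.57% of all genes. The class I heavy chain H2-K1 had 899.9, 2516, 1886, 1947 and 1762 CPM at day 14 and 1005, 1197, 1150, 951 and 1085 CPM at day 7 (edgeR adjusted p = 0.0503), and its light chain B2m had 1268, 3809, 2533, 2796 and 2571 CPM at day 14 and 1766, 1852, 1803, 1560 and 1754 CPM at day 7 (edgeR adjusted p = 0.157). Without replicate 1 both rose, with log2 fold changes of 0.92 ± 0.12 and 0.75 ± 0.13 (edgeR adjusted p = 2.06e-04 and 0.00131).

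The homeostatic genes of microglia depended on the library that stood apart. P2ry12 was among the values by which that library was seen to differ, so p-values without it are no independent support. With all libraries 1 of 25 fell, Sparc, and 0 rose, beside 8.04% and 2.57% of all genes, so that neither share exceeded that of all genes. Without replicate 1, 11 of 25 fell and 0 rose, beside 11.9% and 8.57% of all genes. P2ry12, the purinergic receptor that guides microglial processes, had 4184, 941, 1074, 1106 and 881 CPM at day 14 and 1412, 2261, 2561, 2598 and 2238 CPM at day 7. Replicates 2 to 5 of day 14 lay below all day 7 libraries and replicate 1 above all of them, so that the log2 fold change was -0.44 ± 0.41 (edgeR adjusted p = 0.634) with all libraries and -1.14 ± 0.17 (adjusted p = 4.23e-04) without replicate 1. Siglech, a sialic acid receptor, had 1290, 479, 449.5, 543 and 439 CPM at day 14 and 917, 1015, 1107, 1060 and 985 CPM at day 7. Siglech was at -0.67 ± 0.28 with all libraries (edgeR adjusted p = 0.181) and was at -1.09 ± 0.10 without replicate 1 (adjusted p = 1.51e-05), both on the log2 scale. Selplg, the ligand of P-selectin, had 5338, 1818, 2062, 1952 and 1712 CPM at day 14 and 2653, 3485, 3639, 3480 and 3334 CPM at day 7. With all libraries Selplg was not called (edgeR adjusted p = 0.567), and without replicate 1 its log2 fold change was -0.81 ± 0.12 (adjusted p = 3.61e-04). Sparc, a matrix-binding glycoprotein, had 4410, 2346, 2510, 2342 and 2157 CPM at day 14 and 4166, 4675, 4707, 4540 and 4412 CPM at day 7. Sparc fell by 0.71 ± 0.19 on the log2 scale (edgeR adjusted p = 0.0347), a call lost in 9 of the 10 fits without 1 library (adjusted p up to 0.0882) and kept without replicate 1 (adjusted p = 2.62e-05). Of the same list Tmem119, Cx3cr1, Csf1r and Sall1 were not called with or without that library. Tmem119 had 5019, 2747, 3308, 2626 and 2464 CPM at day 14 and 2574, 3130, 3391, 3514 and 3092 CPM at day 7. Cx3cr1 had log2 fold changes of 0.07 ± 0.13 and, without replicate 1, 0.01 ± 0.11, Csf1r 0.02 ± 0.15 and -0.06 ± 0.12, and the transcription factor gene Sall1 -0.05 ± 0.29 and -0.36 ± 0.23 (edgeR adjusted p of these 4 genes between 0.332 and 0.973 over both fits).

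Genes of the disease-associated state of microglia, a state described around plaques and after injury, showed the same dependence in the other direction. Apoe and Spp1 were among the values by which replicate 1 was seen to differ, so p-values without it are again no independent support. With all libraries 0 of 24 rose and 1 fell, beside 2.57% and 8.04% of all genes, so that neither share exceeded that of all genes. Without replicate 1, 13 rose and 2 fell, beside 8.57% and 11.9% of all genes. Apoe (chromosome 7, 19696109 to 19699188, GRCm38), the lipid carrier, had 1397, 63380, 57980, 62410 and 64350 CPM at day 14 and 14010, 12600, 11150, 7488 and 10710 CPM at day 7. The 4 later replicates of day 14 were close to each other and lay above every day 7 library, and replicate 1 lay below every one (log2 fold change 2.16 ± 0.67, edgeR adjusted p = 0.0616; without replicate 1 2.48 ± 0.17, adjusted p = 1.55e-06). Spp1, osteopontin, had 5.29, 5153, 3131, 4024 and 3742 CPM at day 14 and 1527, 888, 588, 520.5 and 963 CPM at day 7. With all libraries Spp1 was not called (edgeR adjusted p = 0.297), and without replicate 1 its log2 fold change was 2.17 ± 0.28 (adjusted p = 1.42e-04). Fabp5, a fatty acid binding protein, had 3.53, 356, 224, 272 and 254 CPM at day 14 and 63.2, 48.8, 26.9, 30 and 32.6 CPM at day 7. With all libraries Fabp5 was not called (edgeR adjusted p = 0.0514), and without replicate 1 its log2 fold change was 2.78 ± 0.25 (adjusted p = 8.80e-06). The glycoprotein Gpnmb had 0, 669, 77.3, 467 and 284 CPM at day 14 and 207, 171, 64, 91.3 and 94.8 CPM at day 7, a spread that kept replicate 3 of day 14 below several day 7 libraries (log2 fold change without replicate 1 1.58 ± 0.49, edgeR adjusted p = 0.04). Cst7, an inhibitor of lysosomal cysteine proteases, rose without replicate 1 by 0.83 ± 0.18 (edgeR adjusted p = 0.00636). Lipoprotein lipase, Lpl, had 24.3, 175, 36.9, 156 and 64.7 CPM at day 14 and 154, 229, 230.5, 153 and 209.9 CPM at day 7 and was called in neither fit (edgeR adjusted p = 0.188 and, without replicate 1, 0.143). Trem2, the lipid-sensing receptor on which the state depends, was also called in neither (log2 fold changes -0.10 ± 0.15 and, without replicate 1, -0.15 ± 0.14). The member that fell with all libraries was Ank, a pyrophosphate transporter, with 27.3, 28.2, 13.4, 24.8 and 23 CPM at day 14 against 29.4, 58.3, 65.9, 45.3 and 49.8 CPM at day 7. Ank fell by 1.09 ± 0.23 on the log2 scale (edgeR adjusted p = 0.00886).

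Among iron genes the main uptake receptor fell and the main storage protein rose. Tfrc, the transferrin receptor that takes up iron, had 17.9, 16.6, 19, 11.9 and 21.4 CPM at day 14 and 55.5, 58.6, 60.1, 36.5 and 54.4 CPM at day 7, and every day 14 library, the first included, lay below every day 7 library (log2 fold change -1.61 ± 0.18, edgeR adjusted p = 6.18e-05). Fth1, the ferritin heavy chain that stores iron, had 1944, 12470, 12990, 8507 and 12320 CPM at day 14 and 4738, 3589, 3600, 3310 and 3538 CPM at day 7. Fth1 rose by 1.36 ± 0.39 with all libraries (edgeR adjusted p = 0.0441) and was at 1.63 ± 0.15 without replicate 1 (adjusted p = 1.23e-05), both on the log2 scale, with the call lost in 9 of the 10 fits without 1 library (adjusted p up to 0.106). Slc11a2, which moves iron out of endosomes, had 46.9, 166, 131, 138 and 134 CPM at day 14 and 54.4, 59.1, 60.7, 64.2 and 58 CPM at day 7. Slc11a2 rose by 1.06 ± 0.25 on the log2 scale (edgeR adjusted p = 0.0182). Blvrb, a reductase of haem breakdown products, rose by 1.11 ± 0.26 (edgeR adjusted p = 0.0147). The iron exporter Slc40a1 had 291, 108, 87.7, 147 and 105 CPM at day 14 and 215, 306, 299.5, 318 and 312 CPM at day 7. It was not called with all libraries and fell without replicate 1 (edgeR adjusted p = 0.0526 and 7.44e-05). In all, 2 of the 10 fits without 1 library called Slc40a1. Nqo1, an antioxidant quinone reductase, had 0.83, 0.529, 0.615, 1.84 and 0.884 CPM at day 14 and 3.84, 11.3, 4.3, 6.05 and 6.6 CPM at day 7. Nqo1 fell by 2.75 ± 0.42 on the log2 scale (edgeR adjusted p = 8.16e-04). In the whole list of oxidative stress and iron genes 5 of 18 rose and 2 fell, beside 2.57% and 8.04% of all genes. The metal-binding Mt1, placed in the glucocorticoid list, rose by 0.73 ± 0.19 (edgeR adjusted p = 0.0297), a call lost in 7 of the 10 fits without 1 library (adjusted p up to 0.0821).

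Of 20 genes of glycolysis and hypoxia 2 rose and 3 fell with all libraries, beside 2.57% and 8.04% of all genes. Without replicate 1, 14 rose and 3 fell, beside 8.57% and 11.9% of all genes, so that the share that fell was near that of all genes. The 3 that fell in both were Hk1, hexokinase 1, Slc2a1, the glucose transporter abundant in the endothelium of the blood-brain barrier, and Pfkp, a form of phosphofructokinase. Hk1 had 60.9, 43.4, 35.4, 40.7 and 48.1 CPM at day 14 and 79.3, 75, 63.4, 75.2 and 87.4 CPM at day 7 (log2 fold change -0.74 ± 0.15, edgeR adjusted p = 0.00572), Slc2a1 had 121, 209, 296, 172 and 376 CPM at day 14 and 469.9, 721, 386, 458 and 578 CPM at day 7 (log2 fold change -1.15 ± 0.28, edgeR adjusted p = 0.0195), and Pfkp fell by 1.61 on the log2 scale (adjusted p = 0.00141). Egln3, a prolyl hydroxylase induced by low oxygen, had 1.76, 25.1, 24.3, 14.8 and 48.3 CPM at day 14 and 6.13, 3.73, 4.57, 4.04 and 4.31 CPM at day 7. Egln3 rose by 2.33 ± 0.57 on the log2 scale (edgeR adjusted p = 0.0204). The calls of Slc2a1 and Egln3 were lost in 3 and 4 of the 10 fits without 1 library (adjusted p up to 0.0567 and 0.0582).

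Genes of the extracellular matrix and adhesion rose in 3 of 20 and fell in 3, beside 2.57% and 8.04% of all genes. The membrane protease Mmp14 had 51.4, 370.0, 496, 307 and 398 CPM at day 14 and 127, 60.6, 74.3, 76.9 and 76.9 CPM at day 7. Mmp14 rose by 1.96 ± 0.45 on the log2 scale (edgeR adjusted p = 0.0128). Thbs1, thrombospondin 1, had 27.9, 207, 105, 142 and 409 CPM at day 14 and 67.9, 31.9, 43, 36.5 and 32.8 CPM at day 7. Thbs1 rose by 2.07 ± 0.53 on the log2 scale (edgeR adjusted p = 0.0249), a call lost in 5 of the 10 fits without 1 library (adjusted p up to 0.0726). Itgal, the alpha chain of the leukocyte integrin LFA-1, rose by 2.96 ± 0.66 (edgeR adjusted p = 0.0114), and Tgfbi, a matrix protein induced by TGF-beta, and a member of the TGF-beta list, rose by 2.39 ± 0.49 (edgeR adjusted p = 0.00697). In these 4 genes replicate 1 of day 14 lay within or below the range of day 7 and replicates 2 to 5 lay above it. The 3 that fell were collagens of vessel walls and fibroblasts. Col4a1, of basement membranes, had 7.47, 10.8, 9.53, 15.2 and 20.5 CPM at day 14 and 125, 92.4, 96.3, 154 and 109.9 CPM at day 7. Col4a1 fell by 3.18 ± 0.27 on the log2 scale (edgeR adjusted p = 7.42e-06). Col3a1 had 0.104, 0.463, 0, 1.05 and 1.22 CPM at day 14 and 36.8, 18.6, 1.44, 24.9 and 33.5 CPM at day 7, with replicate 3 of day 7 far below the rest (log2 fold change -5.24 ± 0.85, edgeR adjusted p = 0.00135). Col1a1 had 3 reads in the 5 day 14 libraries together and 847 in the 5 day 7 libraries, a ratio of scaled totals of 0.00365 (exact 95% interval 0.000752 to 0.0107, counting error only; edgeR adjusted p = 6.33e-05).

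Markers of brain vessels fell together. Of 16 endothelial and mural markers tested 15 fell and 0 rose, beside 8.04% of all genes, with a median log2 fold change of -3.14. The summed level of the list was 532 to 874 CPM at day 14, against 2890 to 5473 CPM at day 7, with no overlap, and without Bsg, which many cells express, it was 130 to 165 CPM against 1365 to 2833 CPM. Cldn5 (chromosome 16, 18776847 to 18778262, GRCm38), the tight junction protein of the blood-brain barrier, had 11.3, 23.9, 18, 16.2 and 11.1 CPM at day 14 and 258, 491, 223, 214 and 272 CPM at day 7. Cldn5 fell by 4.17 ± 0.30 on the log2 scale (edgeR adjusted p = 2.48e-06). Flt1, a receptor for vascular endothelial growth factor, had 12.1, 12.8, 13.4, 12.6 and 12.1 CPM at day 14 and 168, 230.3, 124, 143 and 197 CPM at day 7. Flt1 fell by 3.77 ± 0.17 on the log2 scale (edgeR adjusted p = 3.55e-07). Every day 14 library, replicate 1 included, lay more than 5-fold below every day 7 library in both genes. Slco1a4, an organic anion transporter of the barrier, had 13.9, 19.6, 18.4, 12.9 and 12 CPM at day 14 and 229, 359, 188, 196 and 285 CPM at day 7. Slco1a4 fell by 4.03 ± 0.23 on the log2 scale (edgeR adjusted p = 9.27e-07). Itm2a had 25.2, 33.6, 28.3, 27.1 and 17.1 CPM at day 14 and 396, 1002, 409.5, 408 and 569 CPM at day 7. Itm2a fell by 4.41 ± 0.31 on the log2 scale (edgeR adjusted p = 2.35e-06). The growth factor receptor Kdr, the angiopoietin receptor Tek and the junction protein Pecam1 fell by 2.99, 4.23 and 2.19 on the log2 scale. The member not called was Abcc9, a mural cell channel subunit (log2 fold change -1.93 ± 0.57, edgeR adjusted p = 0.0511), which was called without replicate 1 (adjusted p = 0.0488). That fit was among 3 of the 10 fits without 1 library that called Abcc9 (lowest edgeR adjusted p = 0.0304).

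Markers of the choroid plexus, the epithelium that secretes cerebrospinal fluid, were low at day 14. Of 10 list entries, which include ependymal genes, 7 passed the filter on low counts and 7 fell, beside 8.04% of all genes. Their median log2 fold change was -4.04, and genes seen mainly at day 7 passed that filter by being high there. The summed level of the 10 entries was 95.2 to 188 CPM at day 14 and 1311 to 3889 CPM at day 7. Ttr, transthyretin, had 77.5, 77.8, 73.2, 71.4 and 35.4 CPM at day 14 and 1340, 1882, 546, 665 and 1579 CPM at day 7. Ttr fell by 4.17 ± 0.38 on the log2 scale (edgeR adjusted p = 1.48e-05). Enpp2, autotaxin, had 98.8, 94.4, 83.7, 88 and 54.4 CPM at day 14 and 1102, 1786, 671, 868 and 1705 CPM at day 7. Enpp2 fell by 3.87 ± 0.30 on the log2 scale (edgeR adjusted p = 3.86e-06). In both the day 7 libraries themselves varied about 3-fold, and still lay above every day 14 library. Kl, klotho, Clic6, a chloride channel protein, and Folr1, a folate receptor, fell by 4.26, 4.12 and 4.03 on the log2 scale, with edgeR adjusted p between 2.48e-06 for Clic6 and 6.18e-05 for Kl. Of the genes with the largest falls at a mean log2 CPM of 3 or more, other than those of these lists, Car4, Slc38a3, Slc22a8 and Ptn are known from brain vessels or choroid plexus, and Wfdc1, Sema3c and Palmd completed the set. Their log2 fold changes lay between -4.46 ± 0.32 for Slc38a3 and -4.28 ± 0.33 for Palmd, and Slc22a8, an organic anion transporter, had 2.7, 4.23, 3.77, 4.2 and 2.86 CPM at day 14 and 51.3, 97.8, 58.2, 67.9 and 96.9 CPM at day 7 (edgeR adjusted p = 9.01e-07). Astrocyte markers fell in 3 of 11, beside 8.04% of all genes, among them the transcription factor Sox9 and clusterin, Clu, with 8.3, 27.2, 21.2, 38.4 and 12.3 CPM at day 14 and 266, 205, 54.4, 65.5 and 144 CPM at day 7 for Clu (log2 fold changes -4.58 ± 0.42 and -2.77 ± 0.51, edgeR adjusted p = 1.61e-05 and 0.00297). The astrocyte filament gene Gfap had 1.97, 4.89, 6.77, 3.28 and 4.28 CPM at day 14 and 6.87, 11.8, 6.46, 8.15 and 7.61 CPM at day 7 and was not called (edgeR adjusted p = 0.077). In 1 of the 10 fits without 1 library Gfap was called (lowest edgeR adjusted p = 0.0349). Slc1a3, the most abundant member of the astrocyte list, was not called either. It had 104 to 126 CPM at day 14 and 83.7 to 132 CPM at day 7. Whether fewer vessel, choroid plexus and astrocyte cells or fragments entered the sorted samples at day 14 was not tested, and no unsorted tissue was used here.

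**Figure D3:**
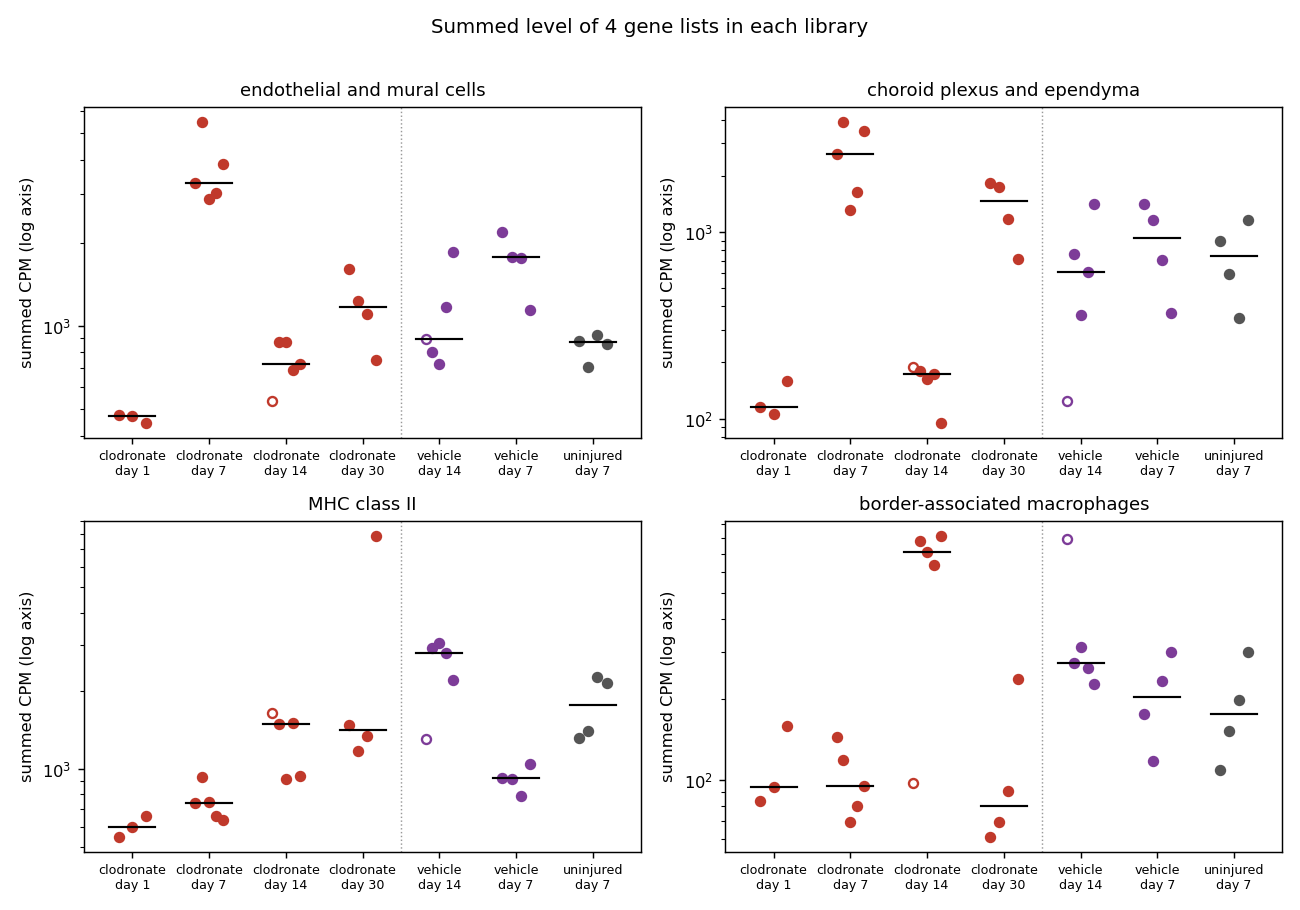
Summed CPM of 4 gene lists in each library of 7 groups (y axes logarithmic), with clodronate days 1, 7, 14 and 30 on the left, then vehicle days 14 and 7 and uninjured day 7, a line at the median and open points for the day 14 libraries labelled replicate 1 of clodronate and of vehicle. Endothelial and choroid plexus sums have their highest median at clodronate day 7, and border-associated macrophage sums are highest in clodronate day 14 replicates 2 to 5 and in vehicle day 14 replicate 1.

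Among further lists, few members were called. Of 26 interferon response genes 0 rose and 1 fell, beside 2.57% and 8.04% of all genes. The gene that fell, Ifi44, had 0.415, 1.39, 0.846, 0.459 and 1.09 CPM at day 14 and 14.5, 3.3, 2.61, 2.52 and 3.38 CPM at day 7. Ifi44 fell by 2.62 ± 0.58 on the log2 scale (edgeR adjusted p = 0.0112). Of 18 phagocytosis and lipid receptors 2 rose and 2 fell, beside 2.57% and 8.04% of all genes, so that the share that fell was near that of all genes. The rises included Fcgr4, an activating Fc receptor, at 2.03 ± 0.59 (edgeR adjusted p = 0.0469), and the falls were Gas6, a ligand of the receptors that clear dying cells, at -0.58 ± 0.14 (adjusted p = 0.0172), and Scarb1, a lipoprotein receptor, at -0.68 ± 0.15 (adjusted p = 0.0106). Of 25 lysosomal genes 2 rose, beside 2.57% of all genes, the sialidase Neu1 by 0.55 ± 0.13 and the proton pump subunit Atp6v0d2 by 2.89 ± 0.84 (edgeR adjusted p = 0.0204 and 0.0475). Without replicate 1, 11 rose, beside 8.57% of all genes. The calls of Fcgr4, Neu1 and Atp6v0d2 were lost in 8, 4 and 8 of the 10 fits without 1 library (adjusted p up to 0.12, 0.0587 and 0.113). Of 22 immediate early genes 1 rose, beside 2.57% of all genes. It was Ier3 (log2 fold change 0.60 ± 0.16, edgeR adjusted p = 0.033), a call also lost in 8 of those fits (adjusted p up to 0.0975). The glucocorticoid list, whose members respond to the stress hormone, had 1 rise and 3 falls among 14 genes, beside 2.57% and 8.04% of all genes. Klf9 had 2.07, 1.32, 1.77, 2.16 and 3.13 CPM at day 14 and 4.71, 10.9, 5.54, 6.56 and 9.14 CPM at day 7. Klf9 fell by 1.81 ± 0.31 on the log2 scale (edgeR adjusted p = 0.00201). The kinase Pdk4 and the co-receptor Tgfbr3 fell by 3.5 and 2.82 on the log2 scale. From the clock genes Nr1d1, a repressor of the circadian loop, had 11.3, 13.7, 11.6, 17.2 and 13.9 CPM at day 14 and 34.4, 36.5, 31.4, 22.9 and 24.4 CPM at day 7. Nr1d1 fell by 1.14 ± 0.17 on the log2 scale (edgeR adjusted p = 7.68e-04). The hour of collection was not given in the sources used here. Ltbp1, which binds latent TGF-beta, fell by 2.43 (adjusted p = 0.00262).

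None of the 29 cell cycle genes, 20 heat shock genes, 25 cytosolic ribosomal protein genes or 10 genes of the mitochondrial genome was called by edgeR with all libraries, against 1374 genes called and 2759 at an unadjusted p under 0.05 over all genes. Without replicate 1, 14 of the ribosomal protein genes and 3 of the mitochondrial genes rose, beside 8.57% of all genes. In that fit 2 of the heat shock genes fell, a share near the 11.9% of all genes. Mki67 had 2.49, 13.6, 5.15, 8.53 and 12.1 CPM at day 14 and 26.1, 4.38, 3.78, 6.92 and 6.6 CPM at day 7, and Top2a had 2.8, 36.8, 17.1, 7.67 and 21.4 CPM at day 14 and 64.2, 7.96, 8.02, 14.6 and 13.5 CPM at day 7, so that for both genes of dividing cells day 7 replicate 1 was the highest of the 10 libraries. Hspa1a, an inducible chaperone, had 1217, 37.9, 110.1, 197 and 73.2 CPM at day 14 and 97.5, 237, 275, 305 and 462 CPM at day 7. Dnajb1 and Fos were likewise highest in day 14 replicate 1, at 1934 and 14840 CPM, against 263 to 508 and 5561 to 6554 CPM in the other day 14 libraries. The fitted changes of Hspa1a, Dnajb1 and Fos were 0.25 ± 0.79, 0.42 ± 0.48 and 0.07 ± 0.28 with all libraries and -1.39 ± 0.46, -0.39 ± 0.25 and -0.29 ± 0.16 without replicate 1, with no call in either fit (edgeR adjusted p between 0.053 and 0.927).

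**Figure D4:**
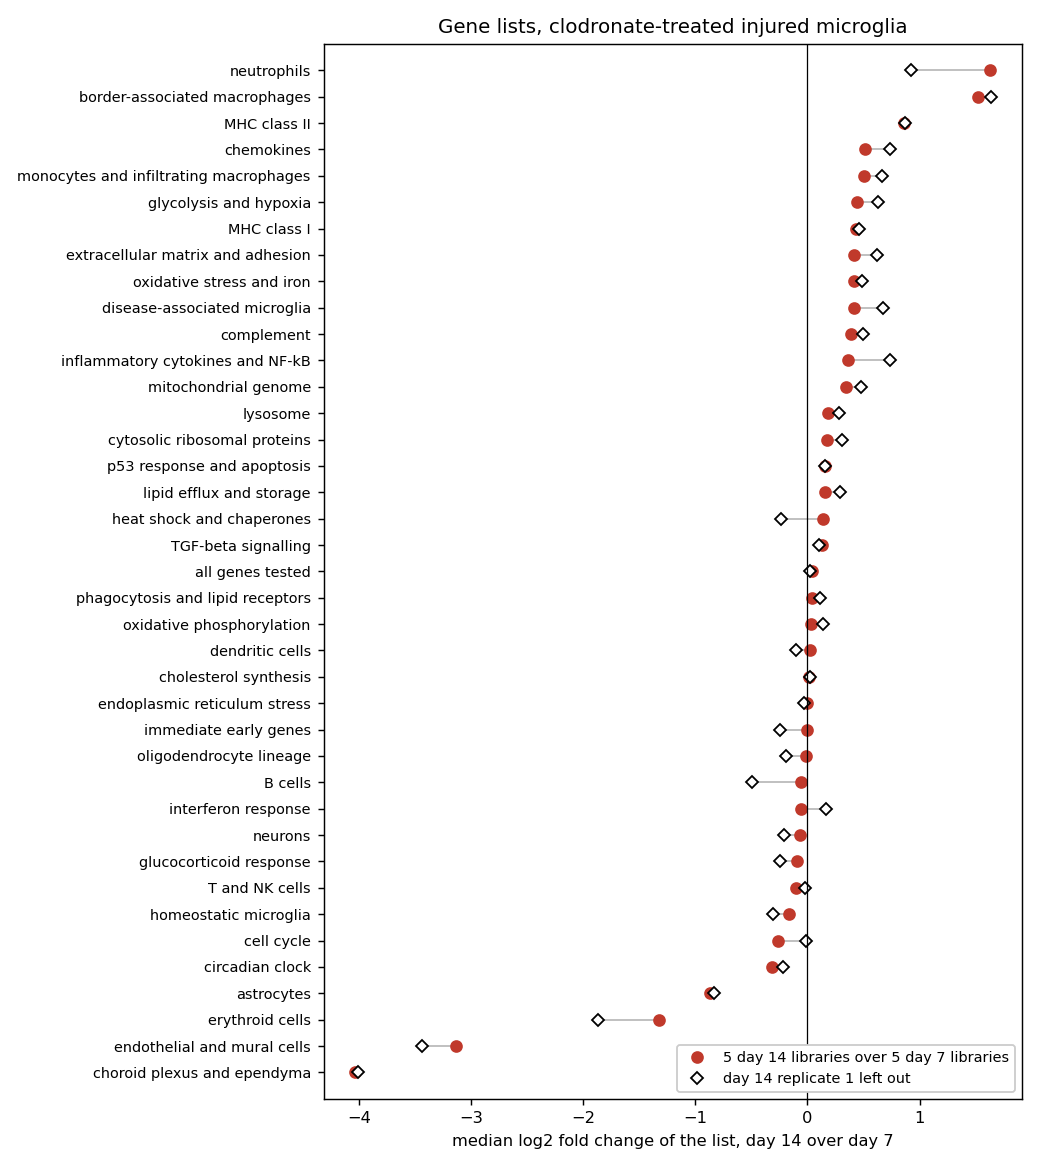
Median log2 fold change of day 14 over day 7 (x axis) for each gene list, with all 10 libraries (red circles) and without day 14 replicate 1 (open diamonds). The endothelial and choroid plexus lists lie at -3.14 and -4.04 with all libraries, and all genes tested lie at 0.04. The heat shock, interferon response and dendritic cell lists change sign between the symbols.

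Set against clodronate libraries of other days, Cldn5 and Ttr were low at day 1, highest at day 7 and low again at day 14. Cldn5 averaged 2.1 ± 0.304 CPM at day 1 (SD, n = 3), 292 ± 114 CPM at day 7 (n = 5), 16.1 ± 5.32 CPM at day 14 (n = 5) and 53.4 ± 26.6 CPM at day 30 (n = 4), beside 31.1 ± 9.33 CPM in uninjured libraries (n = 4). Ttr averaged 56 ± 14.7 CPM at day 1, 1202 ± 579 CPM at day 7, 67 ± 17.9 CPM at day 14 and 550.0 ± 214 CPM at day 30, beside 345 ± 181 CPM in uninjured libraries. The day 14 mean of Ttr thus lay near that of day 1 and below that of uninjured libraries. Cd74 averaged 207 ± 67 CPM at day 1, 212 ± 54.9 CPM at day 7, 535 ± 121 CPM at day 14 and 1492 ± 1949 CPM at day 30, where 1 library reached 4413 CPM, beside 661 ± 245 CPM in uninjured libraries. Cxcl13 averaged 1.62 ± 0.93 CPM at day 1, 3.08 ± 2.52 CPM at day 7, 292 ± 101 CPM at day 14 without replicate 1 (n = 4) and 51 ± 76.3 CPM at day 30, with a range of 1.18 to 162 CPM at day 30, and 0.214 ± 0.296 CPM in uninjured libraries. Apoe averaged 1699 ± 442 CPM at day 1, 11190 ± 2442 CPM at day 7, 62030 ± 2813 CPM at day 14 without replicate 1 and 8482 ± 3564 CPM at day 30, beside 2027 ± 435 CPM in uninjured libraries, so its day 14 mean was the highest of these groups. P2ry12 averaged 1080 ± 331 CPM at day 1, 2214 ± 478 CPM at day 7, 1000 ± 107 CPM at day 14 without replicate 1 and 2992 ± 449 CPM at day 30, beside 4866 ± 471 CPM in uninjured libraries. Replicate 1, left out of the day 14 means of Cxcl13, Apoe and P2ry12, had 1397 CPM of Apoe and 4184 CPM of P2ry12. Its Cxcl13 lay below that of every day 7 library. With it the day 14 mean of P2ry12 would be higher and those of Apoe and Cxcl13 lower. These levels across days were not tested.

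The same interval was then compared in mice given vehicle liposomes, to ask whether the change between the days differed with the agent, the study's question being what depletion of peripheral monocytes does to microglia over time. In 1 fit of the 4 groups, the vehicle libraries of day 14 over day 7 gave 1 gene that rose, 0.00705% of 14186, and 0 that fell, 0%, with 1567 genes at an unadjusted p under 0.05 (edgeR). The vehicle group also held libraries that stood apart. The library labelled vehicle day 14 replicate 1 correlated at 0.979 to 0.986 with clodronate day 14 replicates 2 to 5 and at 0.947 to 0.959 with the other vehicle libraries of day 14, the reverse of what was seen for clodronate day 14 replicate 1. Whether the labels of these replicate 1 libraries are right was not tested. Vehicle day 7 replicate 4 held 1134078 gene counts, with 32.6% of aligned reads on ribosomal RNA. The gene that rose in vehicle was Cd74, with 533, 1239, 1288, 1137 and 916 CPM at day 14 and 291, 277, 203 and 333 CPM at day 7 (log2 fold change 1.91 ± 0.26, edgeR adjusted p = 0.00644). The change of Cd74 was not called different between clodronate and vehicle (clodronate minus vehicle -0.58 ± 0.34 on the log2 scale, edgeR adjusted p = 0.459), nor was that of H2-Ab1 (-0.33 ± 0.47, adjusted p = 0.791) or Mrc1 (0.67 ± 0.39, adjusted p = 0.459). Of the 10 MHC class II genes the change was lower with clodronate for 9 and higher for 1, with 0 called.

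For 178 genes, 1.25%, the change between the days was lower with clodronate than with vehicle, and for 2 genes, 0.0141%, it was higher (edgeR, smallest adjusted p = 0.0316). Of the endothelial and mural list 7 of 16 members were among the lower ones, and of the choroid plexus and ependyma list 4 of 10. Cldn5 had 18.9, 26.7, 16.5, 45.8 and 124 CPM in vehicle day 14 libraries and 154, 107, 88.9 and 42.4 CPM in those of day 7, and the difference in its change, clodronate minus vehicle, was -3.13 ± 0.70 on the log2 scale (edgeR adjusted p = 0.0381). Flt1 differed by -2.78 ± 0.53 (adjusted p = 0.0316), Ttr by -3.58 ± 0.70 (adjusted p = 0.0316) and Enpp2 by -3.54 ± 0.79 (adjusted p = 0.0381), all clodronate minus vehicle by edgeR. The 10 genes with the smallest p included Mal, which encodes a membrane lipid raft protein (-3.42 ± 0.56), the carbonic anhydrase Car2 (-3.65 ± 0.66), the lactate transporter Slc16a8 (-4.47 ± 0.80), the cilium protein Rsph4a (-5.39 ± 0.97), the endothelial surface protein Tm4sf1 (-2.81 ± 0.51), the caveolar protein Cavin3 (-3.59 ± 0.67), the dynein chain Dync1i1 (-4.52 ± 0.79) and Hid1 (-3.58 ± 0.61), each with an edgeR adjusted p of 0.0316. Lrrn2, also among them, had 1 read in the 5 clodronate libraries of day 14 and 305 in those of day 7, a ratio of 0.00338 (exact 95% interval 8.53e-05 to 0.0190). The count rested on single libraries: of 19 fits that each left out 1 library 11 called no gene by edgeR, with 1504 to 2143 genes at an unadjusted p under 0.05 in those fits. The fit without the shallow vehicle day 7 replicate 4 was among them, and the highest count was 616, without vehicle day 14 replicate 1. With both day 14 replicate 1 libraries left out, chosen after seeing the data, 1665 genes were called in place of 180.

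When replicate 1 of day 14 was left out in both treatments, a choice made after seeing the data, the change was higher with clodronate for 742 genes and lower for 923 of 14079, and vehicle alone gave 27 rises and 48 falls. Genes that had not differed with all libraries did so then. The difference for Cxcl13 was 5.70 ± 0.65 (edgeR adjusted p = 7.01e-05), against 1.13 ± 1.94 (adjusted p = 0.836) with all libraries. Cxcl13 had 398, 4.88, 4.85, 2.08 and 6.54 CPM in vehicle day 14 libraries, the first of which is the one that stands apart, and 3.32, 1.73, 1.11 and 2.6 CPM in those of day 7. Apoe differed by 2.15 ± 0.35 (adjusted p = 8.03e-04), Spp1 by 3.99 ± 0.55 (adjusted p = 2.63e-04) and P2ry12 by -1.37 ± 0.25 (adjusted p = 0.00194) by edgeR. Spp1 had 3896, 352, 1997, 1276 and 1405 CPM in vehicle day 14 libraries and 4097, 2673, 5407 and 5744 CPM in those of day 7, and without both libraries it fell with vehicle (log2 fold change -1.81 ± 0.40, edgeR adjusted p = 0.0491). Cldn5 and Ttr kept differences of -3.19 ± 0.69 and -3.85 ± 0.63 (adjusted p = 0.00547 and 8.18e-04, edgeR). Cd74 and H2-Ab1 were again not called between the agents (adjusted p = 0.0908 and 0.357), and both rose with vehicle (log2 fold changes 2.05 ± 0.22 and 2.21 ± 0.31, edgeR adjusted p = 1.28e-04 and 0.0044).

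**Figure D5:**
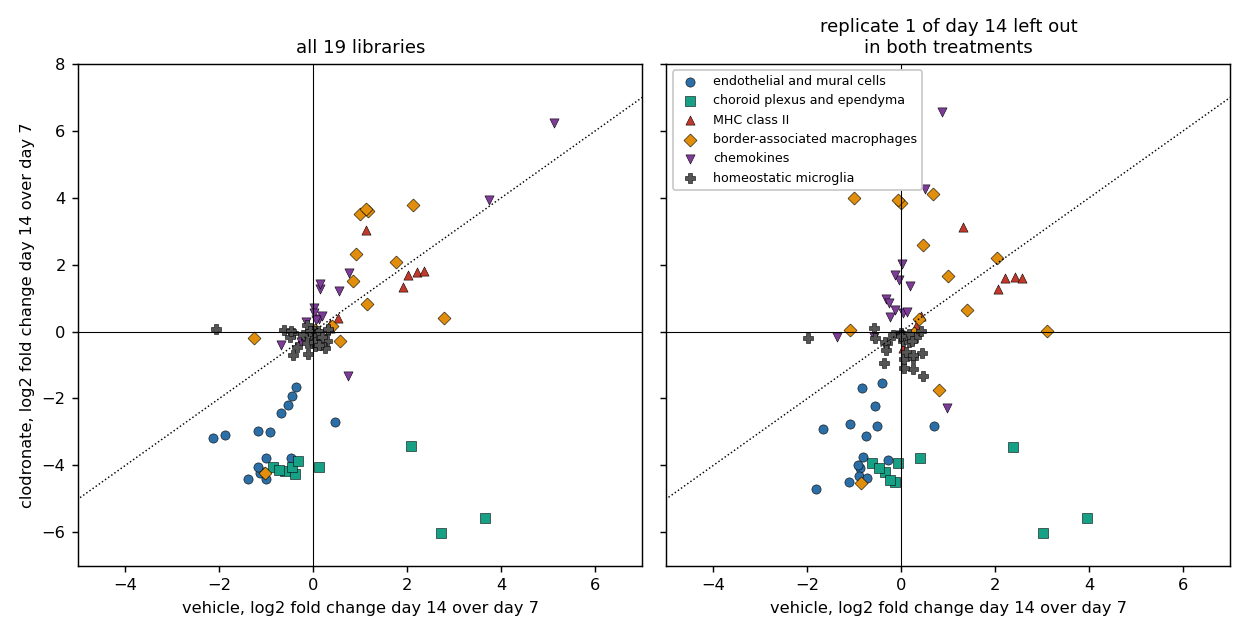
Log2 fold change of day 14 over day 7 with clodronate (y axis) against that with vehicle (x axis) for the members of 6 gene lists, 1 point per gene, from all 19 libraries (left) and without replicate 1 of day 14 in both treatments (right); the dotted line marks equal change. Endothelial and choroid plexus markers lie below the line at left and most of them at right. At left 9 of 10 MHC class II genes also lie below it, with a median difference of -0.34. Cxcl13, the highest chemokine point, moves from near the line at left to far above it at right.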

How the data were processed

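Microglia were isolated by flow sorting, RNA was extracted with the PicoPure kit, cDNA was amplified over 11 PCR cycles and libraries were made with Nextera XT, per the labels' protocols. The authors deposited raw read counts per Ensembl gene for each library, aligned with STAR to mm10 (GRCm38), per the submitters' processing notes, and counted with HTSeq, per the file headers. Strand and other settings were not given in the sources used here, so overlapping and antisense genes cannot be told apart. Summary lines that name no gene were left out. A deposited run summary gives percent values per library by the authors, such as uniquely aligned reads, and 1 of its lines matched no sample. Symbols and coordinates from the GENCODE mouse annotation of GRCm38 matched 49412 of 49671 gene IDs.

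Counts were scaled by TMM and tested with edgeR 4.0.16 (glmQLFit and glmQLFTest, R 4.3.3) on the 10 libraries after filterByExpr (minimum count 10), with Benjamini-Hochberg adjustment over all genes and a threshold of 0.05. Levels are counts scaled by TMM to a common library size (CPM), values after ± beside a fold change are standard errors, and genes are not compared by level. The difference from vehicle came from 1 edgeR fit of 4 groups (19 libraries). The members and gene lists were chosen with earlier results of these data known. Genes were named by a rule: in each direction, at most 10 called protein-coding genes of mean log2 CPM 3 or more whose groups did not overlap, by size of change, up to 4 called members of a list, or 2 where none was called, the 10 smallest p of the difference from vehicle and a set of standard markers. Chosen after their values were seen were Abcc9, Ccl8, Cd44, Ciita, Clec4n, Csf1r, Fabp5, Fth1, H2-DMa, Hp, Lyve1, Mmp14, Ms4a7, Nfkb2, Pecam1, Selplg, Siglech, Slc40a1, Thbs1 and Treml4, all members of lists. Alternatives were RLE scaling, no filter, a replicate block, DESeq2 1.42.0, limma 3.58.1 voom with sample weights, and each library left out. No pair of the libraries compared agreed within sampling noise. Some items are not reported here. Low-read ratios carry exact intervals that cover counting error only, since no molecular identifiers are mentioned.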

Additional observations from a re-analysis of the deposited data

Results flagged for a closer look

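In 38 of 264 sets of 5 values examined, each of 1 gene or quality value in 1 day's libraries, 1 library lay far from the others by Dixon's criterion. Chance flags about 1 in 20 sets of normally spread values, which the CPM of these chosen genes need not be. Day 14 replicate 1 accounted for 12. It was high, in CPM, for Lyve1 (3.42), P2ry12 (4184), Siglech (1290), Selplg (5338), Sparc (4410), Slc40a1 (291), Hspa1a (1217), Dnajb1 (1934) and Fos (14840), and low for Nfkb2 (72.3) and Apoe (1397) and in total gene counts (9534378). Day 14 replicate 4 was high for Nqo1 (1.84 CPM), and day 14 replicate 5 low for Ttr (35.4 CPM).

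Day 7 replicate 1 was high for 17 genes. In CPM these were Ciita (0.673), Cxcl13 (7.54), Ccl5 (50.9), Ccl2 (457), Cfp (41), Fth1 (4738), Mmp14 (127), Itgal (6.74), F13a1 (52.7), Cd44 (13.8), Hp (15.4), Mmp9 (4.11), Tgfbi (166), Fcgr4 (85.3), Ifi44 (14.5), Mki67 (26.1) and Top2a (64.2). It was low for Slc40a1 (215 CPM). Among the other day 7 libraries, replicate 2 was high for Cldn5 (491 CPM) and Itm2a (1002 CPM), replicate 5 was high for Mrc1 (25.2 CPM) and Pdk4 (7.11 CPM) and low for Tnfsf13b (30.8 CPM), and replicate 4 was low for Tfrc (36.5 CPM).

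For 13 named genes the change from day 7 to day 14 was called different between clodronate and vehicle (edgeR, clodronate minus vehicle, log2 scale). All 13 calls were lost with the replicate block and in 11 of the 19 fits without 1 library, the one without the shallow vehicle library included. The differences were -3.42 ± 0.56 for Mal, -3.58 ± 0.61 for Hid1, -4.52 ± 0.79 for Dync1i1, -4.47 ± 0.80 for Slc16a8, -3.65 ± 0.66 for Car2, -5.39 ± 0.97 for Rsph4a, -2.81 ± 0.51 for Tm4sf1, -3.59 ± 0.67 for Cavin3, -3.13 ± 0.70 for Cldn5, -2.78 ± 0.53 for Flt1, -3.58 ± 0.70 for Ttr and -3.54 ± 0.79 for Enpp2. The value for Lrrn2 was -6.37 ± 1.2, which depends on the prior count because its clodronate day 14 libraries held 1 read.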

How the results depend on the processing

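The count of 1374 genes called was 1366 with RLE scaling, 1806 with DESeq2, 1770 without a filter (of 25560 genes) and 954 with the replicate block, and 2555 (1047 rose, 1508 fell) with limma voom and sample weights. Leaving out 1 library gave 1048 to 2734 genes, the highest without day 14 replicate 1. Across those fits the list medians stayed between 0.80 and 0.96 for MHC class II, 1.08 and 1.64 for border-associated macrophages, -3.44 and -3.03 for endothelial and mural cells and -4.24 and -3.82 for choroid plexus, and the endothelial median was -3.46 with the replicate block. The replicate numbers did not pair the libraries: same-numbered deviations correlated between -0.486 and 0.262, with 1 of 5 best with its own number. With the block 41 of the 94 named genes called lost their call.

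Some directions turned, all of uncalled values. Hspa1a was -1.07 with the replicate block, and by limma Hspa1a was -1.38, Tmem119 -0.18, Dnajb1 -0.30 and Fos -0.23. Over the fits without 1 library the lowest and highest values were -1.39 and 0.53 for Hspa1a, -0.17 and 0.13 for Tmem119, -0.39 and 0.62 for Dnajb1, -0.29 and 0.17 for Fos and -0.24 and 0.23 for the heat shock median, each lowest without day 14 replicate 1. They were -0.43 and 0.64 for Mki67 and -0.81 and 0.64 for Top2a, highest without day 7 replicate 1, and -0.21 and 0.45 for the neuron median, highest without day 7 replicate 5.

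The vehicle count of 1 was 2 with RLE scaling, 17 without a filter, 88 with DESeq2, 395 with limma and 0 to 11 without 1 library (1402 and 1766 genes at an unadjusted p under 0.05 where edgeR called 0). The count of 180 for the difference was 296 without a filter, 0 with the replicate block (1839 at an unadjusted p under 0.05), 576 with DESeq2, 1308 with limma and 0 to 616 without 1 library. Left out after seeing the data, both day 14 libraries that stood apart gave 75 for vehicle and 1665 for the difference. Leaving out the shallow vehicle library as well gave 54 and 2010, and leaving out clodronate replicate 1 with the shallow library gave 8 and 3. The cause was not tested. The vehicle library held 1134078 counts and the clodronate libraries at least 9534378.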
